A study of Mus musculus with 9 samples.

Results

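Cytochrome P450 genes encode haem enzymes that insert an oxygen atom into fats, sterols, hormones, vitamins and drugs. Most sit in the endoplasmic reticulum and receive electrons from P450 oxidoreductase (Por), while a few work in mitochondria with ferredoxin. In the small intestine they belong mainly to the absorptive enterocytes, where they oxidise food compounds and drugs before these reach the liver. The members were all rows of the deposited tables whose symbol begins with Cyp and a digit, apart from Cyp51 and Cyp24a1, which were left out. That gave 102 genes of 23951, after 2 of 104 matching symbols were excluded. The same 24 reached a mean of at least 1 FPKM in both tables (fragments scaled by transcript length and library size, a level comparable between genes). The other 78 stayed below it, and 24 of those were listed at 0 in every library.

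RNA came from crypts of the jejunum of mice, in 9 libraries numbered 0 to 2 within each of 3 groups. Smad4 KO mice were Smad4f/f;Villin-CreER(T2) and given tamoxifen, which deletes Smad4, through which cells read BMP and TGF-beta. Double mutants were Smad4f/f; Ex3f/+;Villin-CreER(T2), also given tamoxifen, and carried in addition 1 beta-catenin allele that loses exon 3 and with it the sites that mark the protein for degradation. Control mice carry no stated alleles; their treatment label reads vehicle, whereas the design text calls them uninjected. The Villin promoter drives the recombinase in intestinal epithelium, so other cells keep their alleles. Mutants received tamoxifen for 4 days and were collected 1 day later, and neither age nor strain is given. Tamoxifen and the recombinase cannot be told apart from genotype. The labels do not say that each library is a separate mouse, so p-values measure the spread between these libraries.

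Smad4 transcripts were at 11.025, 9.96 and 10.8 FPKM in Smad4 KO libraries and 46.1, 55.5 and 47.8 FPKM in controls, and at 11.2, 10.2 and 9.95 FPKM in double mutants against 47.5, 58.8 and 49.8 FPKM in controls. The same 3 control libraries serve both comparisons, but the 2 tables were normalized separately, so each mutant group is set against the control values of its own table and the mutant groups were not tested against each other. The number of genes at 1 FPKM or more was 11196 to 11935 per library. Read numbers are unknown, since FPKM holds none.

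Promoter sequence of the genes at the centre of the results comes from RefSeq (GRCm38.p6), which gave a promoter for 76 of the 102 members and for 20 of the 24 that reached 1 FPKM. The 250 bases before the transcript start are printed 5′ to 3′ on the strand of the gene. Cyp3a11, Cyp2b10 and Cyp2c66 were picked from the P450 genes that fell in double mutants, and Cyp20a1 because it had the largest positive fold change there. Cyp4v3 and Cyp4b1, with log2 fold changes of -2.65 and -1.84, fell further than Cyp2c66 (-1.78) and are not shown. Capitals mark CAAAGT, letters found within sites of the HNF4 receptors, and AGGTCA, the half-site of many nuclear receptors, on either strand; ACTTTG is CAAAGT on the other strand. The windows are chr5:145879855-145880104 (minus strand) for Cyp3a11, chr7:25897408-25897657 (plus strand) for Cyp2b10, chr19:39113648-39113897 (plus strand) for Cyp2c66 and chr1:60343050-60343299 (plus strand) for Cyp20a1.
Cyp3a11: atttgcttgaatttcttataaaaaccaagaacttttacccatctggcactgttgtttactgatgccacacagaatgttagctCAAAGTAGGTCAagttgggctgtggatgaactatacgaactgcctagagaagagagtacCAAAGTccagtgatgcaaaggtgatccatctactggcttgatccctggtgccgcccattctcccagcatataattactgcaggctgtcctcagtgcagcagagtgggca
Cyp2b10: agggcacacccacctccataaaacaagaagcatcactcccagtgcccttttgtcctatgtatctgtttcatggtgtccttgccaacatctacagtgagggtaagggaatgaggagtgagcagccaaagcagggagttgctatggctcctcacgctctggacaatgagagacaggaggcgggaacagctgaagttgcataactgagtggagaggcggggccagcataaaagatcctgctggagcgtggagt
Cyp2c66: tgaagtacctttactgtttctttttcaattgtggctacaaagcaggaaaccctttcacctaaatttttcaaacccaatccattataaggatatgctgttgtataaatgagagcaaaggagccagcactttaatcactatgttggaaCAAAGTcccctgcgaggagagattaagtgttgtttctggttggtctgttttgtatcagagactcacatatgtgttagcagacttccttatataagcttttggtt
Cyp20a1: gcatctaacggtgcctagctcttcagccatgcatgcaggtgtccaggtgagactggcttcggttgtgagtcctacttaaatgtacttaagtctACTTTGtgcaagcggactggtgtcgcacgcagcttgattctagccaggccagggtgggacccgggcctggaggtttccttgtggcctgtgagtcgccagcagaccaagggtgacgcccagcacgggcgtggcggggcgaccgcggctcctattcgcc

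The Cyp3a11 window holds CAAAGT at 168 and 109 bases before the start, with AGGTCA directly after the first of these. The Cyp2c66 window holds CAAAGT at 104 bases before the start, the Cyp20a1 window holds it on the other strand at 157 bases, and neither run of letters is in this window of Cyp2b10. CAAAGT was in the windows of 3 of the 10 P450 genes called lower in double mutants and of 5 of 10 others that reached 1 FPKM, against 12.5% of 27025 gene promoters. AGGTCA was in 1 of 10 and 1 of 10, against 13.8% of all promoters. CTTTGAT, the site of the TCF/LEF partners of beta-catenin, was in none of these 20 windows, against 3.23% of all. GCGTG, the core of the site bound by the Ah receptor with Arnt, was in 4 of 10 and 3 of 10, against 28.2% of all. Each run of letters was searched on both strands, and a match describes the letters only.

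P450 transcripts were lower in the double-mutant crypts. Of the 24 genes, 10 fell and 0 rose in double mutants relative to controls (limma on log2(FPKM + 1), Benjamini-Hochberg adjusted p below 0.05 over all 11762 genes tested), where 9.09% of all genes tested fell and 9.39% rose. The genes that fell included the drug-metabolising Cyp2b10, Cyp3a11 and Cyp3a13. The others were Cyp2c55, Cyp2c66, Cyp2j6 and Cyp2j9 of subfamilies 2C and 2J, and the fatty acid hydroxylases Cyp4v3, Cyp4b1 and Cyp4f14. The median log2 fold change of the 24 was -1.07, against -0.00 for all genes tested, and 22 were negative. All double-mutant libraries lay below all controls for 18 of the 24 (21.3% of all genes tested did so) and above them for 0. Cyp2c66 and Cyp2d22 reached the 1 FPKM mean through the controls alone. The count of P450 genes that fell rested on single libraries. It was 0 without double mutant 0, 2 without double mutant 1 (Cyp2b10 and Cyp2c55) and 0 without double mutant 2. It was 9 without control 0, 6 without control 1 and 5 without control 2. Calls over all genes tested, in both directions, dropped too, from 2173 to 139, 708 and 30 without double mutants 0, 1 and 2. Without controls 0, 1 and 2 they numbered 1555, 1175 and 1064. Without 1 library the median lay between -1.29 (control 0 left out) and -0.77 (control 2 left out), and without a filter on low values, over 72 P450 genes, it was -0.09. Cyp2b10 was called in 4 of the 6 fits without 1 library, Cyp4v3 in 3, Cyp2c55, Cyp2c66, Cyp2j6 and Cyp4b1 in 2 each, Cyp3a11, Cyp2j9 and Cyp4f14 in 1 each, and Cyp3a13 in 0. Of the other settings tried, Cyp2b10, Cyp4v3 and Cyp3a11 were called in 10 of 10, Cyp2c55 and Cyp2c66 in 9 of 9, Cyp2j6 and Cyp4b1 in 8 of 10, Cyp4f14 in 7 of 10, Cyp2j9 in 6 of 9 and Cyp3a13 in 5 of 10.

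In Smad4 KO crypts no P450 gene passed the test in either direction, where 0.0253% of 11849 genes fell and 0.00844% rose. At an unadjusted p below 0.05, 2 of the 24 were lower, Cyp2b10 and Cyp2j9, and 0 were higher, against 9.34% and 9.76% of all genes tested. Fold changes were negative for 21 and positive for Cyp20a1, Cyp4f16 and Cyp4f17, with a median of -0.63 against -0.00 for all genes. For none of the 24 did the Smad4 KO and control libraries separate, while 12.2% of all genes had every Smad4 KO library below every control. Leaving out Smad4 KO 0 put this median at -0.99, and leaving out Smad4 KO 2 or control 2 put it at -0.41 or -0.36. Without a filter on low values, over 71 P450 genes, it was -0.02. No setting gave a call.

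**Figure D1:**
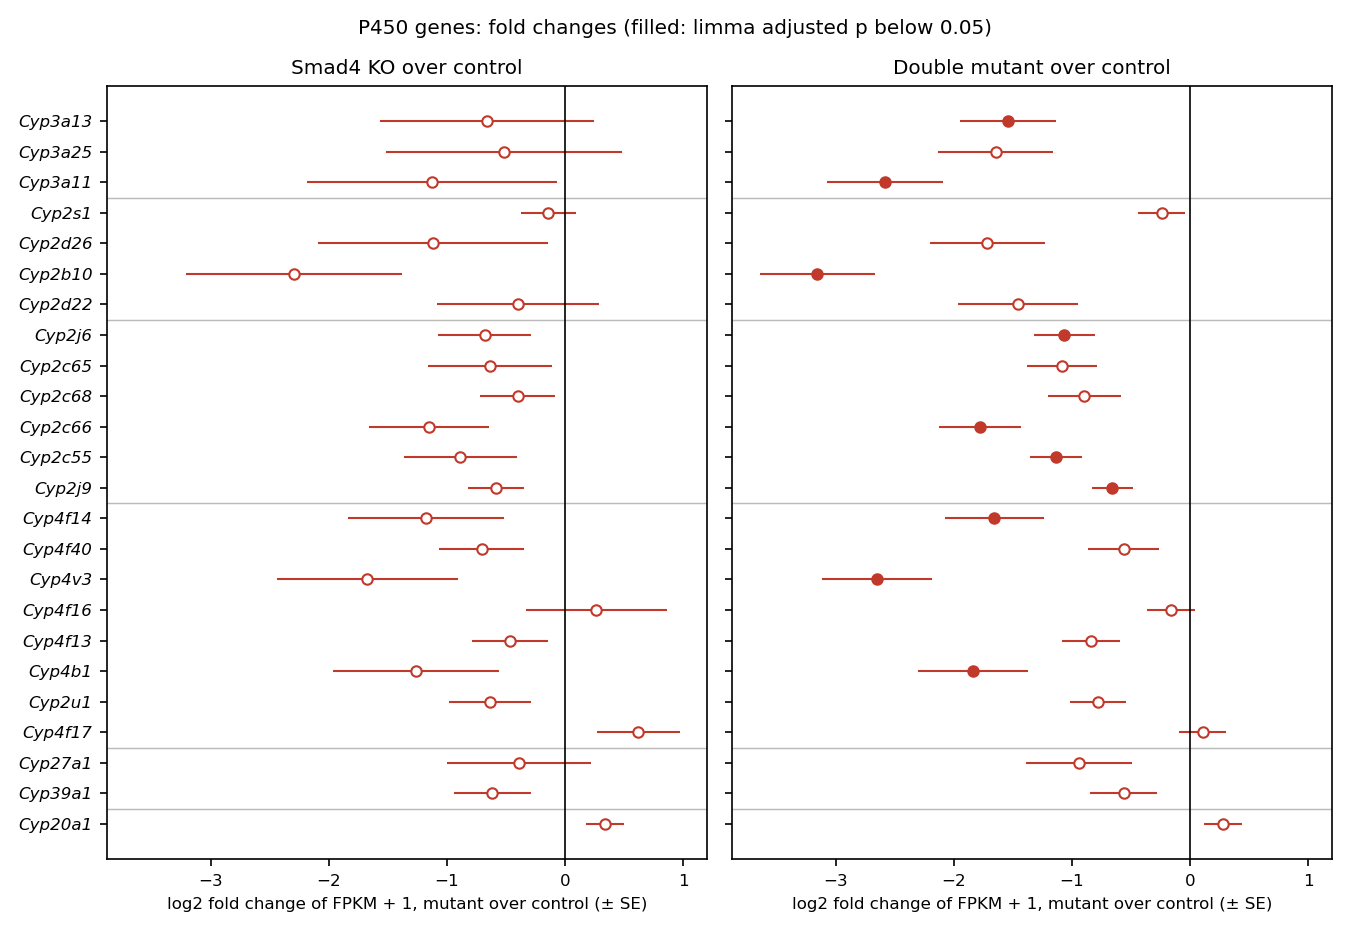
Log2 fold changes of FPKM + 1 over control (horizontal axis) for the 24 P450 genes, with Smad4 KO on the left and double mutants on the right; bars are standard errors, filled points have a limma adjusted p below 0.05, and grey lines part the groups CYP3, other CYP2, CYP2C with CYP2J, CYP4 with CYP2U, bile acid and sterol enzymes, and Cyp20a1. The 10 filled points are all in the double-mutant panel and all negative, and the error bars are wider in Smad4 KO for most genes.

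Libraries of one group differed widely in total P450 signal. Summed over the 102 genes, Smad4 KO 0, 1 and 2 held 1119, 315 and 311 FPKM, against 541, 679 and 1363 FPKM in controls 0, 1 and 2. Double mutants held 306, 390.01 and 318 FPKM, against 558, 720 and 1422 FPKM in controls 0, 1 and 2. Smad4 KO 0 stood apart from the other libraries of its group and within the range of the controls, whereas all double mutants lay below all controls. Smad4 KO 0 was above all controls for 5 of the 24 genes and below all for 2, where 31.2% and 33.5% of all genes tested were. Smad4 KO 1 was above all for 1 gene and below all for 17 (33.1% and 30.5% of all genes), and Smad4 KO 2 for 2 and 20 (34.3% and 33.2%). Double mutants 0, 1 and 2 were below all controls for 21, 18 and 21 of the 24 (36.9%, 30.7% and 33.5% of all genes) and above them for 1, 1 and 0 (32.8%, 34.1% and 33.2%). Among the controls, control 2 was the highest for 20 of the 24 genes.

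The shares of the families in the P450 sum are given without a test. Fatty acid hydroxylases of families 4 and 2U made up 50.7%, 52.5% and 50.6% of the P450 sum in double mutants and 51.3%, 53.3% and 53.8% in controls. CYP3 genes made up 9.69%, 14.7% and 13.4% in double mutants and 16.7%, 15.6% and 17.9% in controls, so every double mutant was below every control. Bile acid and sterol enzymes made up 4.48%, 3.40% and 4.09% in double mutants and 2.83%, 3.33% and 3.26% in controls, and Cyp20a1 made up 4.85%, 4.12% and 3.65% in double mutants and 2.46%, 1.43% and 0.739% in controls. In both, the share in every double mutant was above that in every control, but the P450 sum itself was lower in double mutants. Bile acid and sterol enzymes summed to 13.7, 13.2 and 13.0 FPKM in double mutants, against 15.8, 24.0 and 46.4 FPKM in controls. Cyp20a1 levels overlapped, at 14.8, 16.1 and 11.6 FPKM in double mutants and 13.7, 10.3 and 10.5 FPKM in controls. In Smad4 KO libraries the CYP3 share was 31.0%, 8.75% and 17.1%, against 16.7%, 15.6% and 17.9% in controls, so Smad4 KO 0 had the highest and Smad4 KO 1 the lowest share of its table.

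The P450 sums were set beside those of villus enterocyte markers. The 21 villus enterocyte markers, brush-border enzymes, transporters and lipid carriers, summed to 15813, 1461 and 2629.6 FPKM in Smad4 KO 0, 1 and 2 and to 4668, 6176 and 12884 FPKM in controls 0, 1 and 2. In double mutants they summed to 1429, 2685 and 2527 FPKM, against 4814, 6544 and 13438 FPKM in the controls. Smad4 KO 0 was the highest library, and every other mutant library was below every control. In the P450 sums Smad4 KO 0 came second to control 2, and every other mutant library was likewise below every control. Of the 21 markers, 17 fell and 0 rose in double mutants (median log2 fold change -2.12). Of all genes tested there, 9.09% fell and 9.39% rose. None of the markers passed the test in Smad4 KO (median -1.42). Fewer enterocytes and less P450 RNA per cell cannot be told apart in bulk RNA, and the part of these cells in the P450 results was not tested. Paneth cell markers went the other way in Smad4 KO 0, at 10491 FPKM against 74920 and 157649 FPKM in Smad4 KO 1 and 2 and 64044 to 165706 FPKM in controls. In double mutants Paneth markers summed to between 39218 and 108780.0 FPKM, against 66800 to 170867 FPKM in controls, with none of 13 passing the test. Crypt stem cell markers, defining for the labelled tissue, summed to 343, 1070.0 and 1234 FPKM in Smad4 KO and 733 to 1637 FPKM in controls. In double mutants they summed to 1006, 1425 and 1666 FPKM, against 764 to 1734 FPKM in controls. Of these 10 markers 2 rose in double mutants, where 9.39% of all genes tested did. Of 10 immune cell markers tested, 6 fell in double mutants, where 9.09% of all genes tested did. Immune markers summed to 567, 1212 and 945 FPKM there, against 752 to 1789 FPKM in controls. The 9 hepatocyte markers summed to 275 to 522 FPKM in Smad4 KO and 344 to 593 FPKM in controls, and to 335 to 479 FPKM in double mutants and 359 to 628 FPKM in controls. Nearly all of that was Cps1, a urea cycle enzyme that intestinal epithelium also makes, while albumin never exceeded 0.281 FPKM. Of the 9, 4 were tested and 0 passed in either comparison.

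**Figure D2:**
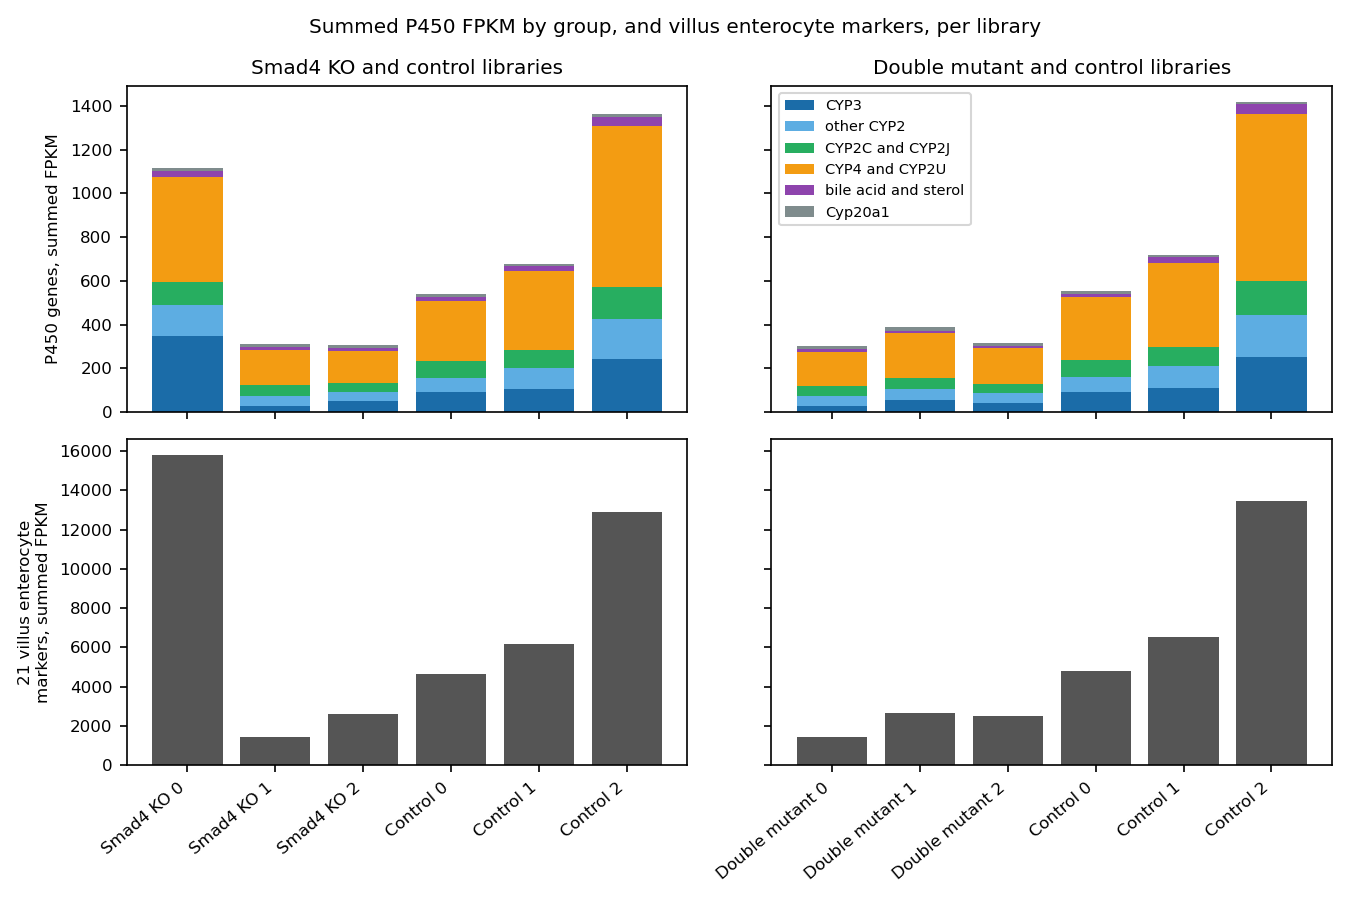
Summed FPKM per library of the P450 genes, stacked by group (top), and of 21 villus enterocyte markers (bottom), with Smad4 KO (left) or double mutants (right) before the controls; groups in which no gene reached 1 FPKM are not drawn. Smad4 KO 0 reached 1119 FPKM of P450 transcripts and 15813 FPKM of villus markers, while the 3 double mutants stayed at or below 390.01 and 2685 FPKM.

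Family 3 enzymes oxidise a very wide range of drugs and steroids, and 3 of 9 reached 1 FPKM. Cyp3a13, the most abundant of them, had 24.3, 45.5 and 28.8 FPKM in double mutants and 66.7, 73.9 and 170.4 FPKM in controls. The groups did not overlap, and the level in double mutants was 31.7% of control (log2 fold change -1.54 ± 0.41 SE, limma adjusted p = 0.0470). That call was lost in each of the 6 fits without 1 library and in 5 of 10 other settings. Smad4 KO libraries had 225, 20.4 and 38.7 FPKM, against 64.7, 69.7 and 163 FPKM in controls. Smad4 KO 0 was above every control and both other Smad4 KO libraries below every control, so the mean difference was not called (-0.66 ± 0.90, adjusted p = 0.720). Without Smad4 KO 1 that fold change turned positive, at 0.053.

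Cyp3a11, a textbook target of the pregnane X receptor, had 0.807, 3.16 and 3.69 FPKM in double mutants and 10.7, 18.8 and 31.6 FPKM in controls. It fell to 12.5% of the control mean, with every double mutant below every control (log2 fold change -2.58 ± 0.49 SE, limma adjusted p = 0.0236). In Smad4 KO it had 45.96, 2.204 and 3.29 FPKM, against 10.4, 17.8 and 30.3 FPKM in controls (-1.12 ± 1.06, adjusted p = 0.597). The pattern was again 1 Smad4 KO library above all controls and 2 below all. Cyp3a25 had 4.40, 8.48 and 9.86 FPKM in double mutants and 15.5, 18.7 and 51.5 FPKM in controls; the groups did not overlap, but it missed the threshold (-1.65 ± 0.49, adjusted p = 0.0642). Of the 50-base windows of their transcripts (GENCODE M21), 26.8% in Cyp3a25, 14.8% in Cyp3a11 and 0% in Cyp3a13 also occur in another gene, so the levels of the first 2 are less certain.

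Outside subfamilies 2C, 2J, 2R and 2U, 4 of 26 family 2 genes reached 1 FPKM, and Cyp2b10 had the most negative fold change of the 24 in both comparisons. Cyp2b10, the textbook target of the constitutive androstane receptor, had 0.682, 1.98 and 3.01 FPKM in double mutants and 14.4, 18.9 and 45.4 FPKM in controls. Its level fell to 7.20% of control, with no overlap between the groups (log2 fold change -3.16 ± 0.49 SE, limma adjusted p = 0.0168). Smad4 KO libraries had 17.3, 0.750 and 2.34 FPKM, against 14.0, 17.8 and 43.6 FPKM in controls. The lowest 2 of these were far below every control while Smad4 KO 0 lay among the controls, and the difference was not called (-2.29 ± 0.92, adjusted p = 0.256).

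Cyp2d26 and Cyp2d22 belong to the subfamily of the human drug-metabolising enzyme CYP2D6. Cyp2d26 had 8.62, 14.7 and 16.0 FPKM in double mutants and 23.5, 40.1 and 89.2 FPKM in controls, without overlap (log2 fold change -1.72 ± 0.49 SE, limma adjusted p = 0.0571). In Smad4 KO it had 84.6, 7.03 and 10.4 FPKM, against 22.8, 37.8 and 85.5 FPKM in controls (-1.12 ± 0.98, adjusted p = 0.566). Cyp2d22 ran between 0.548 and 1.27 FPKM in double mutants and between 2.22 and 10.2 FPKM in controls (adjusted p = 0.0933). Neither gene passed the test, although their double mutants lay below all controls. Cyp2s1, an enzyme of epithelia outside the liver, differed little: it had 34.4, 31.6 and 25.7 FPKM in double mutants and 27.9, 37.1 and 45.3 FPKM in controls (-0.24 ± 0.20, adjusted p = 0.419). Smad4 KO libraries had 35.6, 35.9 and 23.9 FPKM of Cyp2s1, against 27.02, 35.0 and 43.5 FPKM in controls (-0.14 ± 0.23, adjusted p = 0.777), and the small difference turned positive without Smad4 KO 2 (0.048) or without control 2 (0.022).

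Subfamilies 2C and 2J turn arachidonic acid into epoxides and hydroxylated products, and 6 of 23 reached 1 FPKM. All 6 had every double-mutant library below every control, where 21.3% of all genes tested did, and 4 of them fell, where 9.09% did. Cyp2c66 reached the 1 FPKM mean through the controls alone. Cyp2j6, the most abundant, had 18.7, 20.8 and 17.2 FPKM in double mutants and 30.7, 34.7 and 61.8 FPKM in controls (log2 fold change -1.06 ± 0.26 SE, limma adjusted p = 0.0398). Cyp2c66 had 0.298, 1.001 and 0.961 FPKM in double mutants and 3.22, 4.08 and 8.57 FPKM in controls (-1.78 ± 0.35, adjusted p = 0.0254). It fell to 14.2% of control, the lowest of the 6 genes that reached 1 FPKM. Cyp2c55 had 1.14, 1.85 and 0.787 FPKM in double mutants and 4.80, 3.28 and 3.66 FPKM in controls (-1.14 ± 0.22, adjusted p = 0.0248). Cyp2j9 had 1.36, 1.10 and 1.55 FPKM in double mutants and 2.83, 2.09 and 3.18 FPKM in controls (-0.66 ± 0.17, adjusted p = 0.0480). Both stayed at low levels throughout.

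Cyp2c65 and Cyp2c68, with values of 14.7 to 16.6 and 5.87 to 7.79 FPKM in double mutants and 21.6 to 51.9 and 8.31 to 20.9 FPKM in controls, missed the threshold (adjusted p = 0.0515 and 0.0918). Cyp2c66 shares 24.0% of its 50-base windows with other genes, mainly Cyp2c65, and Cyp2c68 shares 43.3%, mainly with Cyp2c40, so how the counting split their fragments matters for these 3 genes. In Smad4 KO, Cyp2j9 had 1.99, 1.35 and 0.888 FPKM, against 2.75, 1.97 and 3.05 FPKM in controls (log2 fold change -0.59 ± 0.24 SE, limma adjusted p = 0.259). Cyp2c66 had 4.00, 0.955 and 0.723 FPKM there, against 3.12, 3.85 and 8.22 FPKM in controls (-1.15 ± 0.50, adjusted p = 0.284). Cyp2j6 had 39.6, 20.0 and 16.8 FPKM, against 29.7, 32.8 and 59.2 FPKM in controls (-0.68 ± 0.39, adjusted p = 0.394). Cyp2c55 had 4.35, 0.551 and 0.994 FPKM, against 4.66, 3.09 and 3.51 FPKM in controls (-0.89 ± 0.48, adjusted p = 0.362). In each of these genes except Cyp2j9, Smad4 KO 0 lay within the controls and Smad4 KO 1 and 2 below all of them; for Cyp2j9, Smad4 KO 0 was level with the lowest control.

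Families 4 and 2U hydroxylate fatty acids and their signalling derivatives, and 8 of 23 reached 1 FPKM, the largest group. Cyp4f14, which inactivates leukotriene B4, was the most abundant P450 transcript. It had 55.7, 90.8 and 60.4 FPKM in double mutants and 128, 195 and 393 FPKM in controls, and fell to 28.9% of control without overlap (log2 fold change -1.66 ± 0.42 SE, limma adjusted p = 0.0434). Smad4 KO libraries had 223, 57.7 and 56.9 FPKM, against 125, 184 and 377 FPKM in controls (-1.18 ± 0.66, adjusted p = 0.376). Smad4 KO 0 again lay within the controls, and Smad4 KO 1 and 2 below them.

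Cyp4v3, the mouse counterpart of the fatty acid hydroxylase that is mutated in human Bietti crystalline dystrophy, had 7.56, 14.1 and 16.5 FPKM in double mutants and 47.7, 75.0 and 151 FPKM in controls. It fell to 14.0% of control (log2 fold change -2.65 ± 0.46 SE, limma adjusted p = 0.0201). This was the second most negative fold change of the 24 after Cyp2b10, with every double mutant below every control. In Smad4 KO it had 74.8, 13.0 and 13.4 FPKM, against 46.2, 70.7 and 145 FPKM in controls (-1.67 ± 0.77, adjusted p = 0.299). Cyp4b1, which hydroxylates fatty acids and activates some toxins, had 3.35, 3.56 and 5.18 FPKM in double mutants and 10.4, 11.9 and 37.1 FPKM in controls. It fell to 20.3% of control without overlap (-1.84 ± 0.47, adjusted p = 0.0430). Smad4 KO libraries had 16.6, 3.01 and 4.13 FPKM, against 10.1, 11.2 and 35.5 FPKM in controls (-1.26 ± 0.71, adjusted p = 0.378).

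The other 5 genes of this group did not pass the test in either comparison. Cyp4f13 ran from 9.23 to 12.005 FPKM in double mutants and from 15.1 to 28.7 FPKM in controls (adjusted p = 0.0613), and Cyp2u1, a hydroxylase of long-chain fatty acids, from 3.26 to 3.63 against 4.47 to 9.41 FPKM (adjusted p = 0.0662). Both were separated from the controls. Cyp4f40, at 34.7 to 45.5 FPKM in double mutants and 45.0 to 98.1 FPKM in controls, overlapped at the edge of the groups. Cyp4f16 had 26.8, 35.1 and 27.9 FPKM in double mutants and 27.5, 30.3 and 44.3 FPKM in controls, with 26.5% of its windows shared with other genes, mainly Cyp4f37. In Smad4 KO 0 Cyp4f16 reached 101 FPKM, against 20.99 and 26.5 FPKM in the other 2 Smad4 KO libraries and 26.7 to 42.5 FPKM in controls. Cyp4f17, the gene nearest above the 1 FPKM mean, had 1.49, 1.21 and 1.17 FPKM in double mutants and 1.63, 0.844 and 0.983 FPKM in controls.

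**Figure D3:**
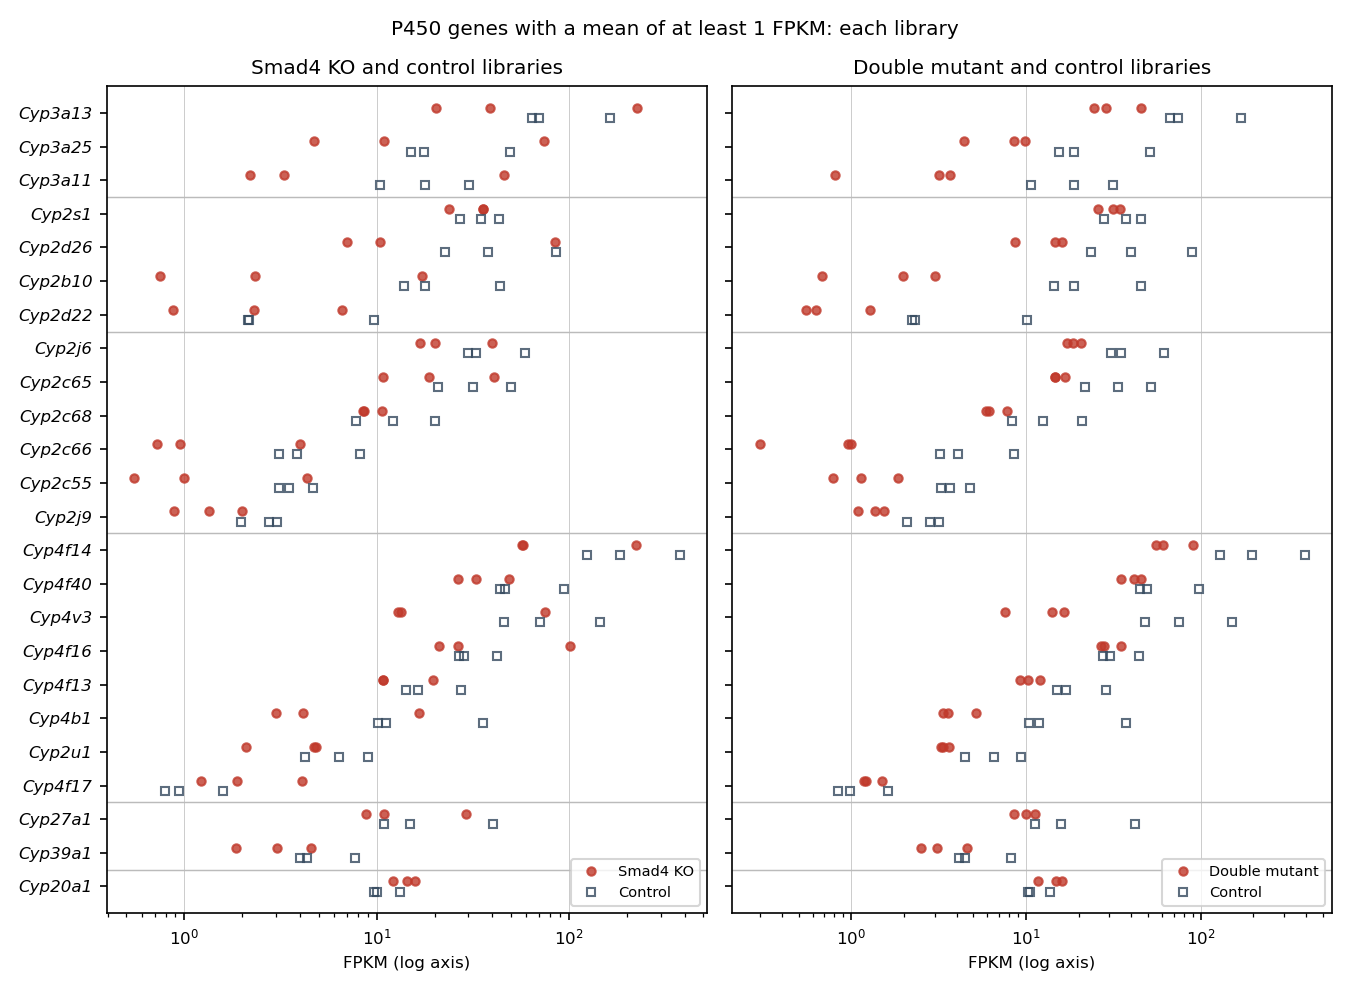
FPKM (log axis) of each of the 24 P450 genes in each library: filled circles are Smad4 KO (left) or double-mutant (right) libraries, open squares are controls, and grey lines part the groups. In the double-mutant panel all circles lie left of all squares for 18 genes. In the Smad4 KO panel this holds for 0 genes, and Smad4 KO 0 lies right of all squares for 5, as for Cyp3a13 at 225 FPKM.

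Bile acid and sterol enzymes were represented by Cyp27a1 and Cyp39a1 of 6 genes. Cyp27a1, the mitochondrial sterol 27-hydroxylase, had 11.2, 8.52 and 9.94 FPKM in double mutants and 11.3, 15.8 and 42.2 FPKM in controls (log2 fold change -0.94 ± 0.45 SE, limma adjusted p = 0.185). Its lowest control was nearly level with the highest double mutant. In Smad4 KO it had 29.1, 8.76 and 10.9 FPKM, against 10.95, 14.9 and 40.4 FPKM in controls (-0.39 ± 0.61, adjusted p = 0.759), and the sign turned without control 2 (0.14). Cyp39a1, which hydroxylates 24-hydroxycholesterol, ran from 2.49 to 4.61 FPKM in double mutants and from 4.15 to 8.17 FPKM in controls (adjusted p = 0.201). Cyp7a1, the rate-limiting enzyme of bile acid synthesis in liver, and Cyp8b1, which makes cholic acid, were listed at 0 in every library.

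Cyp20a1, a P450 with no settled substrate, ran from 9.70 to 16.1 FPKM over all libraries. It had 14.8, 16.1 and 11.6 FPKM in double mutants and 13.7, 10.3 and 10.5 FPKM in controls (log2 fold change 0.28 ± 0.16 SE, limma adjusted p = 0.259). Smad4 KO libraries had 12.2, 14.4 and 15.9 FPKM, against 13.3, 9.70 and 10.1 FPKM in controls (0.34 ± 0.16, adjusted p = 0.310). Groups overlapped in both comparisons. Unlike most of the 24, it was not highest in control 2.

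No gene of family 1, of steroid hormone synthesis, of retinoic acid breakdown or of vitamin D activation reached a mean of 1 FPKM. Just under the limit stood the pseudogene Cyp4f41-ps, with a mean of 0.970 FPKM in the Smad4 KO table and 0.848 FPKM in the double-mutant table, while Cyp4f17, just above it, had 1.76 and 1.22 FPKM. Cyp1a1, the classical target of the Ah receptor, had 0.158, 0.301 and 0.0298 FPKM in double mutants and 0.599, 0.0578 and 0.239 FPKM in controls. Cyp17a1, a steroid hydroxylase, had 0.0975, 0.0400 and 0.130 FPKM in double mutants and 0.181, 0.941 and 1.40 FPKM in controls. These low values were not tested. Cyp2c29, an epoxygenase, had 0.0711, 0.0915 and 0.0484 FPKM in double mutants and 0.810, 1.16 and 0.691 FPKM in controls, a separation at levels below the limit.

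Cyp1b1, known from stromal and vascular cells, had 0.197, 0.0307 and 0.767 FPKM in Smad4 KO against 0.0173 FPKM or less in controls. It had 0.460, 0 and 0.0344 FPKM in double mutants, against 0.0178 FPKM or less in controls. Stromal, endothelial and blood markers summed to 26.8, 9.52 and 132 FPKM in the same Smad4 KO libraries and 6.74 to 12.4 FPKM in controls, and to 85.8, 6.69 and 9.14 FPKM in double mutants and 7.14 to 12.8 FPKM in controls. The libraries with the most Cyp1b1 were those with the most stromal transcripts, whose part in it was not tested. Cyp26a1, Cyp26b1 and Cyp26c1, which break down retinoic acid, never exceeded 0.171 FPKM. Cyp27b1, which activates vitamin D, stayed at or below 0.533 FPKM.

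Of 21 genes listed for electron donors and haem supply, 2 passed the test as higher and 0 as lower in double mutants. Of all genes tested there, 9.39% rose and 9.09% fell. The median log2 fold change of the 21 was -0.10, against -0.00 for all genes tested. Fold changes were negative for 14 of the 21, and 6 had every double mutant below every control, where 21.3% of all genes did. None passed the test in Smad4 KO (median -0.06). Por had 42.4, 51.4 and 50.5 FPKM in double mutants and 38.9, 38.0 and 56.7 FPKM in controls (log2 fold change 0.13 ± 0.18 SE, limma adjusted p = 0.631). Cyb5r1, a member of the cytochrome b5 reductase family, rose to 36.1 ± 5.45 FPKM in double mutants, against 19.2 ± 3.89 FPKM in controls (SD, n = 3 each; 0.88 ± 0.18 SE, limma adjusted p = 0.0270). Fdx1l, a mitochondrial ferredoxin, rose to 27.9 ± 1.96 FPKM, against 19.4 ± 2.89 FPKM in controls (SD, n = 3 each; 0.51 ± 0.13 SE, limma adjusted p = 0.0411). Whether Cyb5r1 and Fdx1l serve P450 enzymes was not tested. In Smad4 KO, Por had 163, 39.8 and 37.8 FPKM, against 37.7, 35.8 and 54.4 FPKM in controls, so Smad4 KO 0 also carried the most Por.

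Among receptors and factors that set P450 transcription, 7 of 30 fell and 3 rose in double mutants (median log2 fold change -0.34), where 9.09% of all genes tested fell and 9.39% rose, and 0 of 31 passed the test in Smad4 KO (median -0.22). Ppargc1a, a coactivator of nuclear receptors, fell to 1.89, 2.47 and 1.69 FPKM in double mutants, against 9.49, 13.5 and 15.8 FPKM in controls (log2 fold change -2.19 ± 0.20 SE, limma adjusted p = 0.00791). Ppard, a fatty acid receptor, fell to 39.7, 39.8 and 35.6 FPKM, against 59.4, 68.3 and 71.6 FPKM in controls (-0.77 ± 0.11, adjusted p = 0.0136). Hnf4g, an enterocyte nuclear receptor, fell to 33.5, 50.5 and 43.6 FPKM, against 93.8, 159.7 and 166 FPKM in controls (-1.67 ± 0.26, adjusted p = 0.0170). The vitamin D receptor Vdr fell to 38.6, 56.9 and 57.4 FPKM, against 93.9, 151 and 137 FPKM in controls (-1.30 ± 0.24, adjusted p = 0.0215). For all 4 genes every double-mutant library was below every control, and Smad4 KO libraries were below every control too without being called, with Ppargc1a at 4.36, 2.13 and 1.46 FPKM against 9.20, 12.8 and 15.1 FPKM (adjusted p = 0.111).

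The 3 that rose were Nr2f6, an orphan nuclear receptor, at 41.0 ± 4.06 FPKM in double mutants against 27.1 ± 3.51 FPKM in controls, Cebpb, a factor of stress and inflammatory responses, at 13.0 ± 1.57 against 6.99 ± 1.97 FPKM, and Foxa2, a factor of gut and liver development, at 6.96 ± 0.71 against 4.18 ± 0.82 FPKM (SD, n = 3 each). Their limma adjusted p were 0.0334, 0.0340 and 0.0370.

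The receptors best known for inducing Cyp2b10 and Cyp3a11 did not pass the test. Nr1i3, the constitutive androstane receptor, had 6.41, 7.51 and 9.15 FPKM in double mutants and 13.2, 12.7 and 34.7 FPKM in controls (log2 fold change -1.15 ± 0.38 SE, limma adjusted p = 0.0842). Nr1i2, the pregnane X receptor, had 34.1, 35.1 and 30.0 FPKM in double mutants and 39.2, 47.0 and 64.0 FPKM in controls (-0.56 ± 0.19, adjusted p = 0.0836). Both were separated from the controls in double mutants. Hnf4a had 198, 289 and 254 FPKM in double mutants and 261, 311 and 241 FPKM in controls, with overlap (adjusted p = 0.602).

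Of 9 partners in retinoid metabolism, 5 fell and 0 rose in double mutants (median log2 fold change -1.12), where 9.09% of all genes tested fell and 9.39% rose, and 0 passed the test in Smad4 KO (median -0.88). Rdh7, a retinol dehydrogenase, fell to 2.43, 3.10 and 2.52 FPKM, against 9.42, 32.7 and 70.0 FPKM in controls (log2 fold change -2.99 ± 0.65 SE, limma adjusted p = 0.0310). Rbp2, the retinol carrier of enterocytes, fell to 251, 451 and 395 FPKM, against 719.9, 1048 and 1362 FPKM in controls (-1.50 ± 0.32, adjusted p = 0.0296). Lrat, which esterifies retinol, and Dhrs3, which reduces retinal, fell by 1.23 and 1.10 on the log2 scale (adjusted p = 0.0339 and 0.0382). Rbp2 also had 2229 FPKM in Smad4 KO 0, above every control, and 198 and 419 FPKM in Smad4 KO 1 and 2, below every control.

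**Figure D4:**
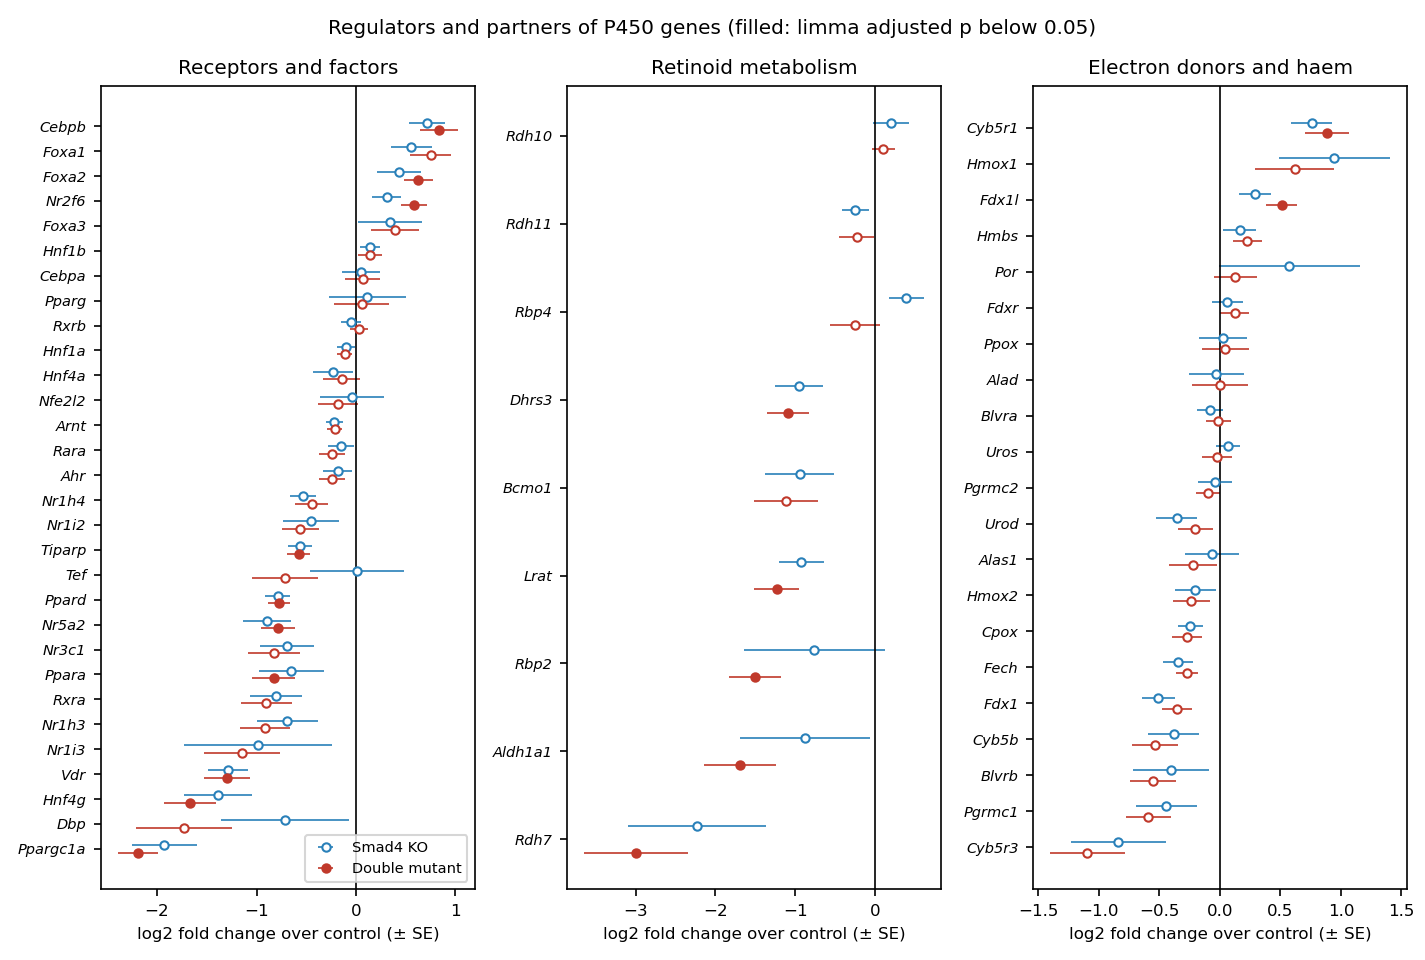
Log2 fold changes of FPKM + 1 over control (± SE) for receptors and factors, retinoid metabolism genes and electron donors with haem supply, in Smad4 KO (upper point of each gene, blue) and double mutants (lower point, red); filled points have a limma adjusted p below 0.05. Filled points are all in double mutants, with Ppargc1a at -2.19 and Rdh7 at -2.99 the most negative of their panels and Cyb5r1 at 0.88 the most positive filled point of its panel.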

How the data were processed

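RNA from jejunal crypts was sequenced from a kit that does not mark strand, per the labels' protocols. The authors deposited FPKM values for 23951 genes in 2 tables. TopHat2 2.1.1, Cuffdiff 2.2.1 and Cuffnorm 2.2.1 are named, with mm9 as the build, per the submitters' processing notes; their roles and the annotation are not given in the sources used here. Control values differ between tables by 1 factor per library (1.03, 1.06 and 1.04).

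Separate fits per table used limma 3.58.1 (R 4.3.3, empirical Bayes with a mean-variance trend) on log2(FPKM + 1), keeping genes whose 6 libraries averaged 1 FPKM or more. Tests were two-sided, adjusted by the Benjamini-Hochberg method over all genes tested and called at adjusted p below 0.05. The log2(FPKM + 1) scale understates changes of low genes. Library depth is unknown, so no counting interval is given. An exact permutation test of 3 libraries against 3 cannot go below p = 0.1. The fit was also run on simulated data with independent noise for each gene. Those data lacked shifts shared by many genes within a library, so that run cannot vouch for the calls here.

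Members, lists and motifs were chosen with earlier results of these data known. Full values are given for P450 genes that were called, those with the 4 smallest p in Smad4 KO and the most abundant of each group in either table; from other lists, up to 4 called genes by smallest p. Genes named beyond this, with the promoters shown, were chosen after their values were seen. Shared 50-base windows come from GENCODE M21 transcripts and serve as a guide, since read length is not given.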

Additional observations from a re-analysis of the deposited data

How the results depend on the processing

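No P450 gene was called in Smad4 KO in any of the 16 alternatives, where between 1 and 16 of all genes tested were called. In double mutants 10 of 24 tested were called lower, and 2173 of all genes tested were called in either direction. The count, with all genes called in brackets, was 11 with a pseudocount of 0.1 (2259) and 8 with 5 (2099). It was 7 of 72 tested without a filter on low values (1392) and 8 of 18 at a mean of at least 5 FPKM (2014). Median-of-ratios and quantile scaling gave 11 (2173) and 12 (2363). Scaling to a sum that left out the 50 highest genes gave 10 (1919). The count was 9 without the variance trend (1977) and 10 with library sex as a covariate (1519). None was called higher. The lists behind similar counts differed. The sex covariate kept 8 of the genes called in the main fit, losing Cyp3a13 and Cyp4f14 and gaining Cyp2d22 and Cyp4f13. The fit without a filter kept 5 of them and gained Cyp2c29 and Cyp2c38. Leaving out 1 library gave counts from 0 to 9, and between 30 and 1555 of all genes tested were called. Without a filter, over 72 genes tested, the double-mutant median log2 fold change was -0.09.

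Whether same-numbered libraries are pairs is not settled. In double mutants the correlations of deviations were 0.0374 to 0.132 for same-numbered libraries, all above the -0.108 to 0.0323 of the others. In Smad4 KO they were -0.111 to 0.223 for same-numbered libraries and -0.149 to 0.211 for the others. With the replicate number as a block, 8 P450 genes were called lower in double mutants, 6 of them among the 10, and 0 in Smad4 KO. Cyp2j6, Cyp2j9, Cyp3a13 and Cyp4f14 were not called in that double-mutant fit, and Cyp2d26 and Cyp3a25 were. Of all genes tested with the block, 1602 were called in double mutants and 1 in Smad4 KO.

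In Smad4 KO, fits without 1 library put the log2 fold change of Cyp27a1 between -0.88 and 0.14 (positive without control 2), of Cyp2s1 between -0.31 and 0.048 (positive without Smad4 KO 2, and 0.022 without control 2) and of Cyp3a13 between -1.65 and 0.053 (positive without Smad4 KO 1), and the cause was not tested. Over the 14 genes given in full, no double-mutant fold change turned sign.

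Sex was read from Xist against summed Y-linked transcripts. By this reading the sexes are mixed, with 2 female and 1 male library in each mutant group and 1 female and 2 male among controls. Control 2 was the female control, and Smad4 KO 0 and double mutant 1 were the male mutant libraries.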
